A study of Mus musculus with 10 samples.

Results

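Histone H4 butyrylated at lysine 5 (H4K5bu) was compared between round spermatids and spermatocytes of the mouse testis, from the lists of enriched islands that the authors deposited for the 2 stages. An island is a stretch of the genome in which reads from the H4K5bu immunoprecipitation outnumber those from the input. All islands on chromosomes 1 to 19 were taken. They numbered 40185 of the 41319 islands in the round spermatid list and 37578 of the 38074 in the spermatocyte list, in all 77763 of the 301484 islands that the series holds for its 4 marks.

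The series mapped acetylation and butyrylation of H4 at lysines 5 and 8 (H4K5ac, H4K5bu, H4K8ac and H4K8bu) by ChIP-seq, the sequencing of immunoprecipitated chromatin. Both groups came from testis of mice of the strain Oncins France 1: mononucleosomes were prepared from fractionated round spermatids for one and from fractionated spermatocytes for the other, and no treatment or mutation is named for either. Each mark had 1 library a stage, and each stage 1 input library of nucleosomes that were not immunoprecipitated. There was thus no replicate, no test between the stages was possible, and every difference below is one between 2 libraries. The 95% intervals of shares and folds cover counting error only. Those of medians give the precision of a median over islands taken as independent, not the spread of islands or variation between libraries.

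Spermatocytes are the germ cells in meiosis, and round spermatids are the haploid cells that follow, which still carry histones before transition proteins and then protamines replace most of them. Acetylation and butyrylation are acyl marks of different chain length that compete for the same lysine side chain. The testis protein Brdt binds the H4 tail when it is acetylated, through its first bromodomain, and butyrylation of lysine 5 hinders that binding, so the stage at which a nucleosome carries H4K5bu bears on where Brdt can bind. The cells of a fraction were measured together, so fewer marked cells and less mark per cell cannot be told apart, and the purity of the fractions was not tested.

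The H4K5bu islands of round spermatids were more numerous and covered more of the genome than those of spermatocytes, while their enrichment was lower. They covered 182.0 Mb in round spermatids and 153.1 Mb in spermatocytes. The median width was 3200 bp in both lists, but the upper end differed. The 90th percentile of width was 9400 bp in round spermatids and 7600 bp in spermatocytes, and 961 against 339 islands were wider than 16000 bp. The median fold over input, with reads scaled by the constant of each deposited list, was 3.48 in round spermatids (quartiles 2.68 and 4.72) and 4.01 in spermatocytes (2.81 and 5.66). The islands held 9080192 ChIP and 3334277 input reads in round spermatids and 7937840 ChIP and 2255617 input reads in spermatocytes. The median island held 120 ChIP and 56 input reads in round spermatids, against 143 and 46 in spermatocytes. Input reads per kb of island also differed, with medians of 17.6 in round spermatids and 14.4 in spermatocytes, and the part of this difference in the lower fold was not tested.

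The larger share of each list lay at places called in both stages. Of the round spermatid islands, 23253 or 57.9% (57.4 to 58.3) shared at least 1 bp with a spermatocyte island. Of the spermatocyte islands, 24228 or 64.5% (64.0 to 65.0) shared at least 1 bp with a round spermatid island. The 101.6 Mb present in both lists made up 55.8% of the bases in round spermatids and 66.4% of those in spermatocytes. This left 16932 islands in round spermatids only (42.1%) and 13350 in spermatocytes only (35.5%). They held 18.9% of the ChIP reads of the round spermatid list and 18.0% of those of the spermatocyte list. An island in 1 stage only was called in that stage and not in the other, which is not a measured absence from the other.

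The larger number in round spermatids depended on how islands with few reads were treated. Of the islands in 1 stage only, 5647 in round spermatids and 5431 in spermatocytes had at least 100 ChIP reads. Both lists were then limited to islands of at least 100 ChIP reads and compared anew. The order of the stages turned, with 7508 in round spermatids only and 9186 in spermatocytes only. This cutoff is a raw count, not scaled for the reads of each library. It kept 23190 (57.7%) of all round spermatid islands and 25706 (68.4%) of all spermatocyte islands, so the spermatocyte list became the longer one. The part of this in the turned order was not tested. The share of round spermatid islands that were shared then was 67.6%, and that of spermatocyte islands was 64.3%.

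The extra 28.95 Mb covered in round spermatids came from several classes of island. Islands in 1 stage only covered 45.7 Mb in round spermatids and 32.2 Mb in spermatocytes, a difference of 13.5 Mb. Islands that met exactly 1 island of the other list covered 106.2 Mb in round spermatids and 95.0 Mb in spermatocytes, a difference of 11.1 Mb. Round spermatid islands that each spanned several spermatocyte islands covered 20.9 Mb, against 15.9 Mb in the spermatocyte islands beneath them.

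Islands in 1 stage only were narrower and weaker than shared ones in either list. Their median width was 2400 bp in round spermatids only, against 4400 bp for shared round spermatid islands, and 2200 bp in spermatocytes only, against 4000 bp for shared spermatocyte islands. Their median ChIP count was 80 in round spermatids only and 90 in spermatocytes only. Their median fold was 2.80 in round spermatids only, against 4.31 for shared islands of that stage, and 3.49 in spermatocytes only, against 4.51 for shared islands of that stage. A fold of at least 4 was found at 1806 (10.7%) of the islands in round spermatids only and at 4827 (36.2%) of those in spermatocytes only. Over all islands this share was also lower in round spermatids, 38.0% against 50.1% in spermatocytes. Among shared islands it was 57.8% in either list. A deposited q-value of at most 1e-06 was found at 93.0% of the islands in round spermatids only and 97.1% of those in spermatocytes only. Among shared islands these shares were higher, 98.6% in round spermatids and 98.7% in spermatocytes.

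Wide islands were nearly all shared. Among islands over 16000 bp, 0.52% of the round spermatid list and 1.18% of the spermatocyte list were in 1 stage only. Between 8000 and 16000 bp the percentages were 2.96 in round spermatids and 2.08 in spermatocytes. At 1000 to 2000 bp they were 63.7% in round spermatids and 69.6% in spermatocytes, and at widths up to 1000 bp 51.8% and 80.9%.

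The fold sorted the lists differently. In round spermatids 76.4% of islands with a fold under 2 were in that stage only, and 6.63% of those with a fold of 5 to 6. In spermatocytes the same classes gave 41.6% and 25%, with the highest share, 50.6%, at a fold of 3 to 4. Narrow islands with strong enrichment, at most 2000 bp wide with a fold of at least 5, numbered 1070 in round spermatids, of which 287 (26.8%) were in that stage only. In spermatocytes they numbered 2370, of which 1439 (60.7%) were in that stage only.

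**Figure D1:**
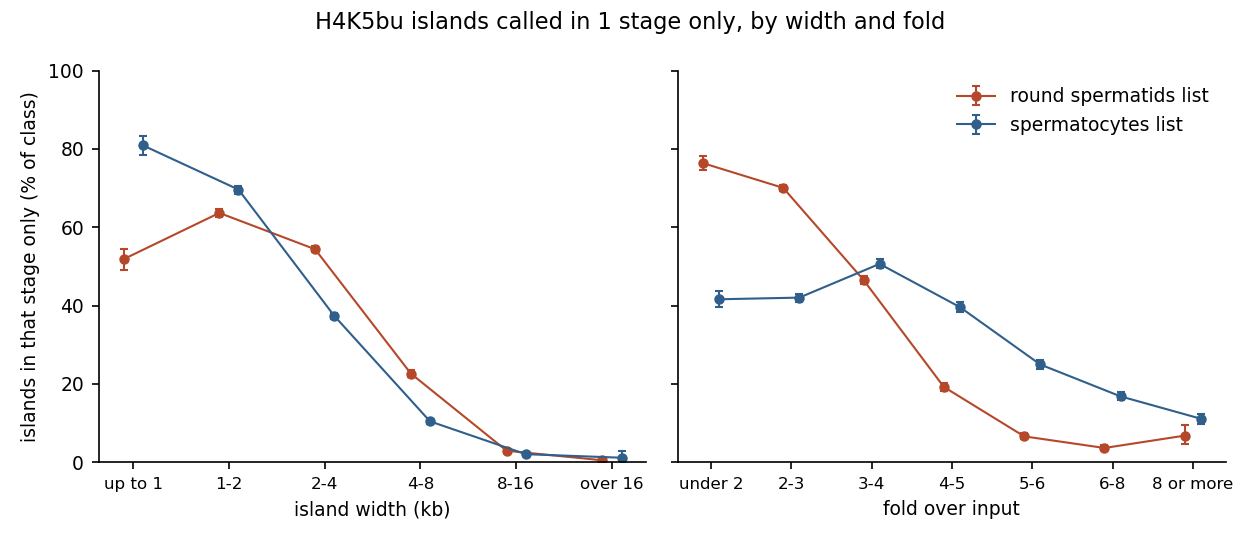
Percent of H4K5bu islands called in that stage only (y) by island width in kb (left) and by fold over input (right), for the round spermatid list (red) and the spermatocyte list (blue), with exact 95% binomial intervals of counting error. Nearly all islands over 8 kb were shared, and at folds of 4 and above the spermatocyte list had the larger share in 1 stage only.

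Islands in 1 stage only were seldom near misses of an island in the other list. The nearest island of the other stage lay at a median distance of 24200 bp for islands in round spermatids only and 18800 bp for islands in spermatocytes only. Within 1000 bp lay 595 (3.51%) of the islands in round spermatids only and 386 (2.89%) of those in spermatocytes only. At the other edge of the overlap rule, 81 of the 25139 overlapping pairs shared just 200 bp, the smallest overlap the grid of island edges allows.

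The islands of highest fold in 1 stage only, with at least 100 ChIP and 20 input reads, show what these calls look like. In round spermatids the highest was a 5600 bp island at chr6:47069801-47075400 (mm9), with 314 ChIP and 45 input reads and a fold of 10.3 (7.51 to 14.4). The nearest H4K5bu island of spermatocytes lay 57200 bp away. In spermatocytes the same place held 2 H4K5ac islands with a pooled fold of 6.23 and 2 H4K8bu islands with 4.81, but no H4K8ac island. The next in rank, at chr1:171853801-171855800 (fold 8.44, 5.34 to 14.0) and chr1:152871401-152873200 (fold 7.93, 4.95 to 13.3), also carried H4K5ac and H4K8bu islands in spermatocytes. All 3 places were therefore marked in spermatocytes, by H4K5ac and H4K8bu, where no H4K5bu was called. The third place also held an H4K8ac island in spermatocytes, with a fold of 3.36, and the second held none.

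The highest islands in spermatocytes only were of another kind. The island at chr7:72949201-72951400, 2200 bp wide, had 173 ChIP and 20 input reads and a fold of 10.3 (6.45 to 17.2). The island at chr16:74486801-74488600 had 229 ChIP and 27 input reads and a fold of 10.1 (6.74 to 15.6). The island at chr5:85377001-85380000 had 286 ChIP and 34 input reads and a fold of 9.98 (6.98 to 14.7). At all 3 places each of the other 3 marks also had an island in spermatocytes, with folds of 3.81 to 15.6, and none of the 4 marks had one in round spermatids.

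Over the whole lists, the share of islands in 1 stage only with another mark in the other stage was below that of all islands. Of the islands in round spermatids only, 33.3% (32.6 to 34.0) were overlapped by an island of at least 1 other mark in spermatocytes, against 71.0% of all round spermatid islands. The remaining 66.7% had no mark in spermatocytes, unlike the 3 islands named above. Of the islands in spermatocytes only, 11.6% (11.1 to 12.2) were overlapped by one in round spermatids, against 64.8% of all spermatocyte islands. By mark, H4K5ac was called in spermatocytes at 26.4% of the islands in round spermatids only, H4K8bu at 24.3% and H4K8ac at 6.43%. Over all round spermatid islands these shares were 67.4%, 66.4% and 55.4%. In round spermatids H4K5ac was called at 9.27% of the islands in spermatocytes only, H4K8bu at 4.81% and H4K8ac at 1.55%. Over all spermatocyte islands they were 62.6%, 58.7% and 51.6%. All 3 other marks were called in spermatocytes at 848 islands in round spermatids only (5.01%), against 54.3% of all round spermatid islands. In round spermatids they were called at 59 islands in spermatocytes only (0.44%), against 50.1% of all spermatocyte islands.

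Within the stage of the call, most such islands were accompanied by another mark, at a share below that of all islands. At least 1 other mark of the same stage was present at 89.4% of all round spermatid islands and 94.7% of all spermatocyte islands, and all 3 at 60.8% and 79.3%. In round spermatids 83.5% of the islands in that stage only overlapped an island of at least 1 other mark, 77.3% one of H4K5ac, 73.1% one of H4K8bu and 42.4% one of H4K8ac. In spermatocytes 87.3% of the islands in that stage only did, 81.9% with H4K5ac, 76.4% with H4K8bu and 66.4% with H4K8ac. All 3 other marks were present at 39.5% of the islands in round spermatids only and at 60.5% of those in spermatocytes only. The H4K8ac list of round spermatids was the shortest of the 8, with 27526 islands on these chromosomes, and its part in the lower percentages there was not tested. No island of another mark in either stage lay at 2552 (15.1%) of the islands in round spermatids only and 1649 (12.4%) of those in spermatocytes only. The share over all islands was not computed. It is at most 10.6% in round spermatids and 5.29% in spermatocytes, the shares of all islands without another mark in the same stage.

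**Figure D2:**
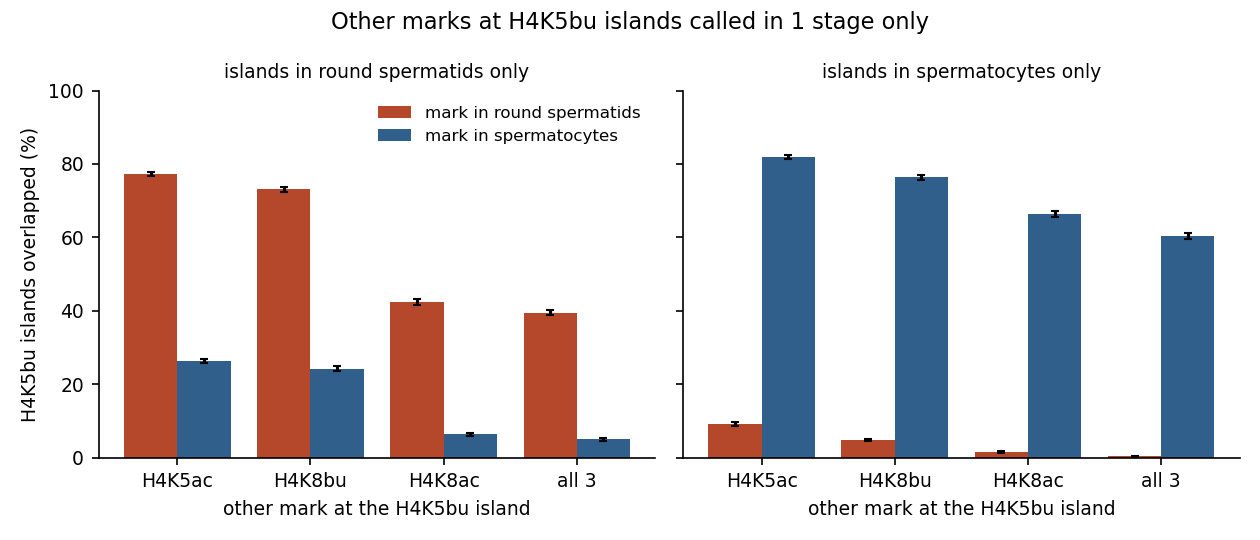
Percent of H4K5bu islands in round spermatids only (left panel) and in spermatocytes only (right panel) that share at least 1 bp with an island of H4K5ac, H4K8bu, H4K8ac or all 3, in round spermatids (red) and in spermatocytes (blue), with exact 95% binomial intervals. Islands in round spermatids only met H4K5ac of spermatocytes at 26.4%, and islands in spermatocytes only met H4K5ac of round spermatids at 9.27%. Over all islands of each list these shares were 67.4% and 62.6%.

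The narrow, strong islands in 1 stage only also differed between the stages in their other marks. Of the 1439 in spermatocytes only, 1048 (72.8%) had all 3 other marks in spermatocytes, and 250 (17.4%) had any other mark in round spermatids. Among all islands in spermatocytes only these shares were 60.5% and 11.6%. Of the 287 in round spermatids only, 84 (29.3%) had all 3 other marks in round spermatids, and 90 (31.4%) had any in spermatocytes. Among all islands in round spermatids only they were 39.5% and 33.3%. All 3 other marks of the same stage were present at the shared islands of that width and fold at 53.1% in round spermatids and 92.2% in spermatocytes. Median input density of the narrow, strong islands in 1 stage only was low, 11.7 reads per kb in round spermatids and 10.7 in spermatocytes. At the shared islands of that width and fold it was 12.5 and 11. All were picked by a high fold over input, so part of this follows from the choice. The median input count of those in 1 stage only was 14 and 15, so that each such fold rests on few input reads.

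The other 3 marks gave the following shares by the same count. For H4K5bu 57.9% of round spermatid islands and 64.5% of spermatocyte islands were shared. For H4K5ac the percentages were 70.7% in round spermatids and 63.1% in spermatocytes, for H4K8ac 68.6% and 54.7%, and for H4K8bu 71.1% and 61.8%. By number of islands, the H4K5bu list was the longer one in round spermatids, while the other 3 lists were longer in spermatocytes. Bases covered were higher in round spermatids for H4K5ac (182.2 against 148.5 Mb) and H4K8bu (181.7 against 158.5 Mb) too. For H4K8ac they were 114.3 and 115.6 Mb. The median fold was also lower in round spermatids for H4K5ac (4.54 against 5.46), H4K8ac (3.10 against 4.12) and H4K8bu (3.50 against 4.38). For H4K5bu the order of the stages in the shared percentages turned among islands of at least 100 ChIP reads, as given above. The difference between the marks was not tested.

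At the places called in both stages, the strength of H4K5bu was close to equal for the typical island and spread widely around it. Exactly 1 island of each list met at 20033 places, called 1-to-1 pairs. Their median fold was 4.27 in round spermatids and 4.60 in spermatocytes. The median log2 ratio of fold, round spermatids over spermatocytes, was -0.11 (-0.12 to -0.10), with quartiles of -0.53 and 0.39. The standard deviation of these log2 ratios was 0.66, against a median standard error from counting of 0.31. The fold was at least 2 times higher in round spermatids at 1217 pairs, 6.07% of all, and at least 2 times lower at 1479 pairs, 7.38% of all. The balance of these directions depended on the scale. With the log2 ratios centred on their median, 1790 pairs were higher and 1029 lower, and among the 13043 pairs with at least 100 ChIP and 20 input reads in both stages, 890 (6.82%) were higher and 566 (4.34%) lower.

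The direction went with the width of the island. Among pairs with a mean width of up to 2000 bp the median log2 ratio was -0.40, and 1.97% were at least 2 times higher in round spermatids while 16.5% were at least 2 times lower. At 2000 to 4000 bp the median was -0.28, at 4000 to 8000 bp it was 0.02, and at 8000 to 16000 bp it was 0.17. Of the 235 pairs over 16000 bp, 5 were at least 2 times higher in round spermatids and 0 were at least 2 times lower, with a median log2 ratio of 0.17 (0.09 to 0.24). By the median, narrow shared islands thus had the higher fold in spermatocytes and broad ones in round spermatids.

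The broad pairs were also wider in round spermatids. The round spermatid island was the wider one at 25.4% of the pairs up to 2000 bp, 39.2% of those at 2000 to 4000 bp, 64.1% at 4000 to 8000 bp and 79.4% at 8000 to 16000 bp. Over all pairs it was wider at 52.8% and narrower at 42.2%. It contained the whole spermatocyte island at 8035 pairs (40.1%) and lay within it at 6391 (31.9%), and the edges were the same at 352 (1.76%). The fold was higher on the wider side: the median log2 ratio was 0.18 where the round spermatid island contained the other and -0.29 where it lay within it. It was already -0.23 where the edges were the same and -0.19 where each island reached further on 1 side. Width and fold come from the same reads, so they are not independent measures. The left and the right edge behaved alike, with the round spermatid island reaching further at 47.3% of left edges and 47.5% of right edges.

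A difference of 2 times or more in width was about as frequent in either direction. The round spermatid island was at least 2 times wider at 1981 pairs (9.89%) and at least 2 times narrower at 2091 (10.4%). At the 352 pairs with the same edges, where width cannot enter, the median log2 ratio of fold was -0.23 (-0.33 to -0.17), with 8 pairs at least 2 times higher and 39 at least 2 times lower. Their pooled fold was 3.96 in both stages, while their median fold was 4.59 in round spermatids and 5.38 in spermatocytes. Pooling gives more weight to pairs with many reads. Among them were places of dense input on chromosome 5, with folds of 1.74 and 2.06 in round spermatids and 1.10 and 1.09 in spermatocytes. The 20033 pairs come from the same 4 libraries. Across them the ratio of fold had a Spearman correlation of 0.85 with the ratio of ChIP density. With the ratio of input density it was -0.61. The fold is ChIP over input reads, so part of both correlations follows from its definition. Input density itself had a median of 17 reads per kb in round spermatids and 13.9 in spermatocytes, and the part of the input in the ratios of fold was not tested.

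Plotted against each other, the folds of the 1-to-1 pairs formed a pair of concentrations. The larger one lay just below equality, at a fold of 5.46 in round spermatids and 6.28 in spermatocytes. A smaller one lay well above equality, at a fold of 4.44 in round spermatids and 2.55 in spermatocytes. Within 0.25 log2 units of these points lay 2352 and 1507 pairs. The space between these concentrations also held many pairs, so they were not separate groups, and how far they stand apart was not tested. The islands around the larger one had a median width of 5400 bp in both stages. Those around the smaller one had a median width of 6800 bp in round spermatids and 4200 bp in spermatocytes, and the round spermatid island was the wider at 84.7% of them. ChIP density there was 53.4 reads per kb in round spermatids and 35.2 in spermatocytes, while input density was 17.9 and 16.5. The pairs around both points were picked by their fold, after the values were seen, so these are descriptions.

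**Figure D3:**
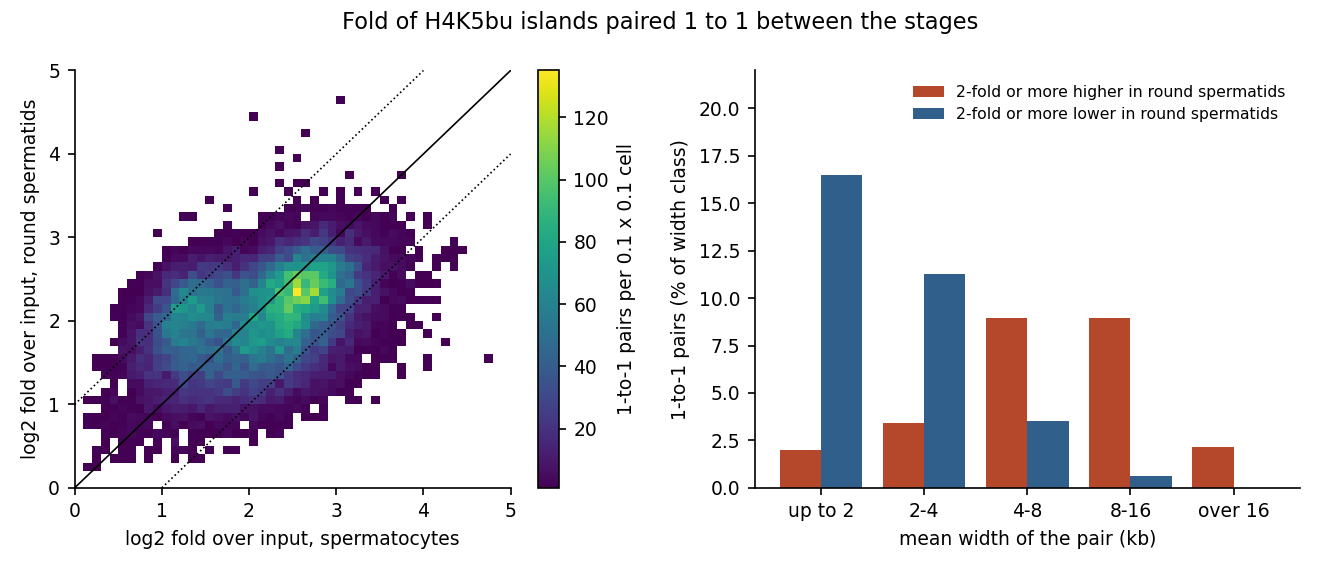
Left, log2 fold over input of the 20033 1-to-1 pairs in round spermatids (y) and spermatocytes (x), coloured by the number of pairs in each cell, with lines at equality (solid) and at a 2-fold difference (dotted). Right, percent of pairs in each class of mean width (kb) with a fold at least 2 times higher (red) or lower (blue) in round spermatids; 16.5% were lower at up to 2 kb and 0% at over 16 kb.

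Among pairs with at least 100 ChIP and 20 input reads in both stages, the log2 ratio of fold reached 2.03 and -2.14. Over all pairs, which include islands of few reads, it reached 2.36 and -3.18. At chr6:33380001-33384800 the round spermatid island had 404 ChIP and 61 input reads and a fold of 9.76 (7.44 to 13.0), and the spermatocyte island 147 ChIP and 73 input reads and a fold of 2.39 (1.79 to 3.21), a ratio of 4.09. At chr16:69798001-69804000 the fold was 9.78 in round spermatids and 2.54 in spermatocytes, and at chr7:92677801-92686600 it was 5.47 and 1.54. The other 3 marks had the higher fold in round spermatids as well wherever both stages had an island at these places: at the first, H4K5ac had a fold of 14.6 in round spermatids and 4.63 in spermatocytes, H4K8bu 8.30 and 3.35, and H4K8ac 5.93 and 2.84.

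In the other direction the largest ratio was of similar size. At chr6:3446801-3449800 the round spermatid island had 112 ChIP and 67 input reads and a fold of 2.46 (1.8 to 3.39), and the spermatocyte island 201 ChIP and 22 input reads and a fold of 10.8 (6.97 to 17.7). Input density moved opposite to the fold, at 22.3 reads per kb in round spermatids and 11 in spermatocytes. In the pair on chromosome 6 of the other direction it was 12.7 and 18.2. These pairs were picked by their ratio of fold, which is ChIP over input reads, so part of this follows from the choice. All marks of a stage share that stage's input, so the other marks are no independent check of it. At chr16:55754601-55760400 the fold was 1.76 in round spermatids and 6.83 in spermatocytes, and at chr15:10910201-10913600 it was 3.01 and 11.5.

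Round spermatid islands spanned several spermatocyte islands more often than the reverse. In round spermatids 1666 islands (4.15%) each met 2 or more spermatocyte islands, up to 5, and in spermatocytes 840 (2.24%) each met 2 or more round spermatid islands, up to 7. Round spermatid islands bridged 1886 gaps between neighbouring spermatocyte islands (5.02% of all such gaps), and spermatocyte islands bridged 911 gaps between round spermatid islands (2.27%). Most bridged gaps were short, with a median of 1000 bp in both directions. Of the shortest gaps a list can hold, 800 bp, round spermatid islands bridged 50.3% of those in the spermatocyte list, and spermatocyte islands 23.5% of those in the round spermatid list.

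The merged islands were broad and strongly enriched in both directions. In 1477 clean groups, 1 round spermatid island of median width 12800 bp lay over spermatocyte islands that summed to a median of 9600 bp, with a median fold of 4.95 in round spermatids and 4.26 in spermatocytes. In 654 clean groups the spermatocyte island was the wide one: the round spermatid islands beneath it summed to a median of 7200 bp and the wide island measured 8600 bp, with a median fold of 4.37 in round spermatids and 4.98 in spermatocytes. By these medians the wide island had the higher fold whichever stage it came from. Here too, width and fold come from the same reads.

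The 3 round spermatid islands over the most spermatocyte islands had no common direction of fold. At chr3:89843201-89890800 a round spermatid island of 47600 bp and a fold of 5.64 (5.20 to 6.12) lay over 5 spermatocyte islands with a pooled fold of 4.61 (4.17 to 5.11), separated by gaps of 800 to 2800 bp. At chr9:107433201-107474000 a round spermatid island with a fold of 6.57 lay over 5 spermatocyte islands with a pooled fold of 8.0, so that merging there did not go with the higher fold. At chr19:8808401-8851400 the round spermatid island had a fold of 5.20 (4.80 to 5.65) and the 5 spermatocyte islands a pooled fold of 5.51 (4.95 to 6.15), with overlapping intervals.

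The spermatocyte islands over the most round spermatid islands were longer, and their fold was above that of the islands beneath. At chr17:66508201-66578200, 7 round spermatid islands had a pooled fold of 3.49 (3.24 to 3.75), beneath 1 spermatocyte island of 70000 bp with a fold of 6.02 (5.62 to 6.46). At chr2:92367801-92439600, 6 round spermatid islands had a pooled fold of 4.29, beneath a spermatocyte island with 7.23. At chr15:59076801-59155600, 5 round spermatid islands had 5.17, beneath a spermatocyte island with 6.99. H4K5ac differed there in the same direction, with a fold of 3.77 over 6 islands in round spermatids and 10.2 over 2 islands in spermatocytes at the chromosome 17 place. Input density was 18.0 to 18.6 reads per kb in round spermatids and 12.5 to 13.9 in spermatocytes at these 3 places, and its part was not tested.

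**Figure D4:**
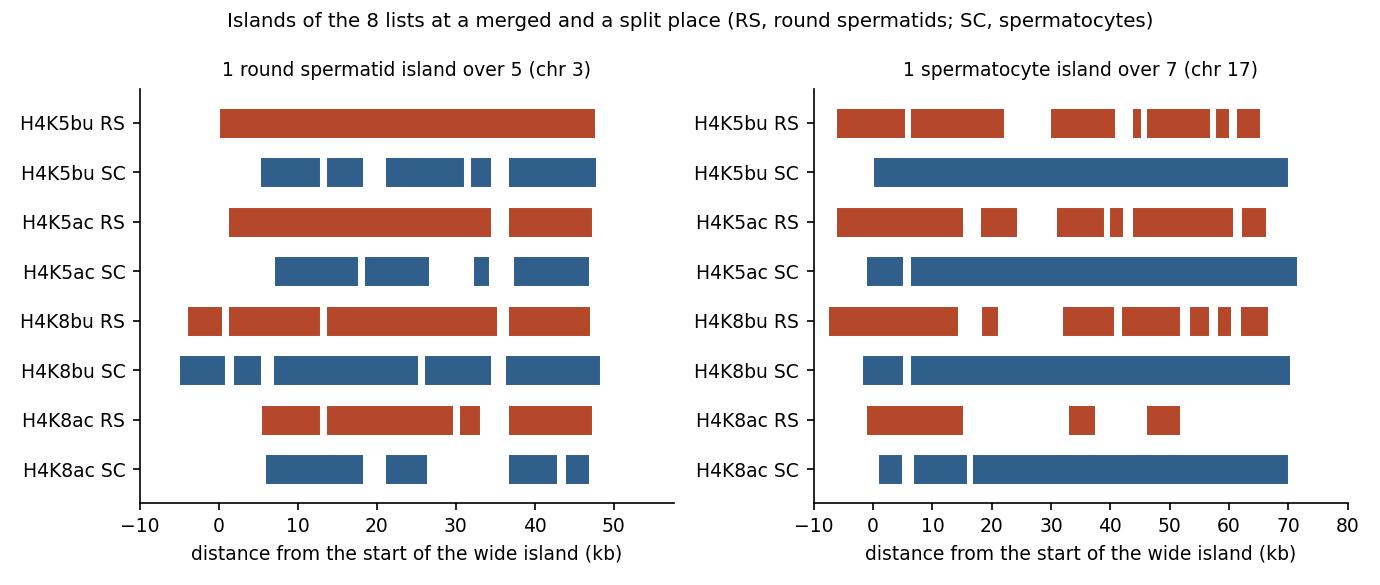
Islands of the 8 lists, as bars along the distance in kb from the start of the wide H4K5bu island, with round spermatids (RS, red) above spermatocytes (SC, blue) for each mark. On the left 1 H4K5bu island of round spermatids lies over 5 of spermatocytes on chromosome 3, and on the right 7 islands of round spermatids lie under 1 of spermatocytes on chromosome 17.

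Along the chromosomes, islands in round spermatids only were spread more evenly than those in spermatocytes only. In 2425 windows of 1 Mb, the mean was 6.98 islands in round spermatids only and 5.51 in spermatocytes only, and the ratio of variance to mean was 1.49 and 2.81. Over all islands of each list this ratio was higher and in the same order, 5.08 in round spermatids and 7.76 in spermatocytes. No island in round spermatids only lay in 21 windows, and none in spermatocytes only in 131. The islands in spermatocytes only followed the shared islands: the mean count of islands in round spermatids only was 5.74 in windows without a shared spermatocyte island and 7.92 in windows with 20 or more, whereas that of islands in spermatocytes only was 1.93 and 8.62. Over the windows, which come from the same 2 lists, the Spearman correlation with the number of shared islands was 0.19 for islands in round spermatids only and 0.59 for islands in spermatocytes only. The counts of islands in 1 stage only had a correlation of -0.02 with each other.

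**Figure D5:**
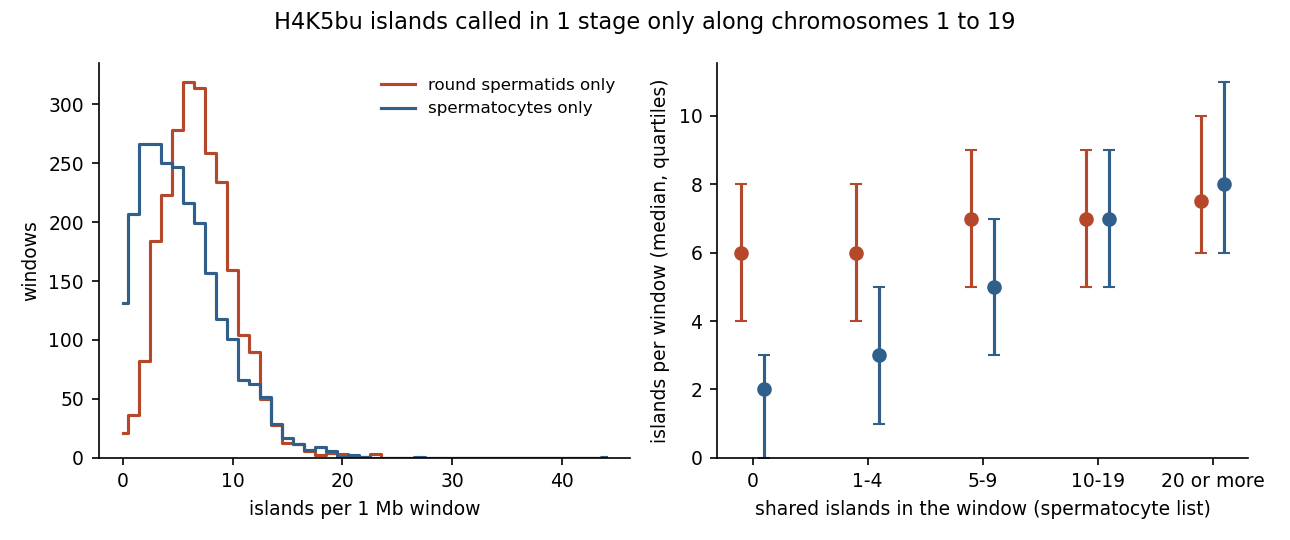
Left, number of 1 Mb windows (y) by the count of H4K5bu islands in round spermatids only (red) and in spermatocytes only (blue). Right, median count per window with quartiles, in classes of the number of shared islands; in windows with no shared island the medians were 6 in round spermatids only and 2 in spermatocytes only.

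The share of islands in round spermatids only differed between chromosomes, while their number per Mb was similar at both ends of its range. The share ran from 34.7% on chromosome 11 to 48.2% on chromosome 3, where 7.09 and 6.92 such islands lay per Mb. Over the 19 chromosomes the share had a Spearman correlation of -0.89 with the number of spermatocyte islands per Mb, a description over chromosomes of the same 2 lists. An island is in round spermatids only where no spermatocyte island meets it, so part of this relation follows from the definition. Chromosome 11 had the most islands per Mb in either stage, 20.4 in round spermatids and 20.2 in spermatocytes, and chromosome 3 the fewest, 14.4 and 12.7.

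Islands in 1 stage only followed each other more often than they followed shared ones. In round spermatids the next island was again in that stage only after 53.3% of the islands in that stage only and after 33.9% of the shared ones. In spermatocytes these percentages were 44.8% and 30.5%. Unbroken runs of 5 or more held 31.9% of the islands in round spermatids only and 16.3% of those in spermatocytes only, and runs of 10 or more numbered 124 and 15. The share of islands in 1 stage only was itself 42.1% in round spermatids and 35.5% in spermatocytes.

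The longest run held 30 consecutive round spermatid islands, at chr12:48336801-50805000, with widths of 1000 to 5000 bp and folds of 1.86 to 4.20. In those 2468 kb the spermatocyte list had 6 islands, which overlapped none of the 30, and the lists of H4K5ac and H4K8bu had 27 islands each in round spermatids and 13 and 12 in spermatocytes. The longest run in spermatocytes held 17 consecutive islands at chr3:86127201-86912600, with folds of 1.98 to 6.62, where round spermatids had 2 H4K5bu islands. In that run the spermatocyte lists held 18 islands of H4K5ac and 16 of H4K8bu, and the round spermatid lists 4 and 3.

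Single windows reached higher counts in spermatocytes. The window chr13:66000001-67000000 held 35 round spermatid islands, 5 of them in that stage only, and 71 spermatocyte islands, 44 of them in that stage only. Its fold was low, 2.08 pooled over the round spermatid islands and 1.95 over the spermatocyte islands, and its input was dense, at 33.1 reads per kb in round spermatids and 32.2 in spermatocytes, against medians of 17.6 and 14.4 over the lists. The part of the input there was not tested. The next window, chr13:65000001-66000000, had 27 islands in spermatocytes only and a similar input density. The third, chr9:58000001-59000000, had 22 and an input density of 18.7 in round spermatids and 15.9 in spermatocytes, near that of the whole lists. In round spermatids the highest count was 23 islands in that stage only, in windows of chromosomes 4, 14 and 17, where 6, 12 and 6 islands were in spermatocytes only. Input density in the round spermatid islands of these windows was 25, 24.7 and 18.1 reads per kb in the same order, against the list median of 17.6, and its part was not tested.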

How the data were processed

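Each mark had 1 ChIP-seq library a stage, and each stage 1 input library, per the labels. The mouse build mm9, SICER, Bowtie2 2.2.5, CASAVA 1.8.2 and deepTools 1.5.11 are named, per the submitters' processing notes. Their settings and the treatment of duplicate reads are not given in the sources used here. Each deposited list gives, per island, its place, a deposited count of reads from the ChIP library and one from the input, and a deposited p-value, fold ratio and q-value. The authors' fold ratio is ChIP over input reads times 1 constant per list, 1.47 for round spermatids and 1.19 for spermatocytes, and folds here were computed with it. Island edges lie on a grid of 200 bp, and every deposited q-value of the H4K5bu lists is below 0.01.

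Groups were taken from the sample titles. Overlap was counted from 1 shared bp. Pairs, merges, runs and windows of 1 Mb were computed in Python 3.11.15 with numpy 2.4.6, pandas 2.3.3 and scipy 1.17.1, and the classes and ratios were tested on simulated data. Intervals are 95%: exact (Clopper-Pearson) for shares, exact conditional binomial for folds, and from order statistics for medians. Reads carry no molecular identifiers, so they are not independent molecules. Total library sizes were not used.

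Named regions are, among islands with at least 100 ChIP and 20 input reads, the 3 of highest fold in 1 stage only per stage, the 3 pairs of largest ratio per direction and the 3 of most ChIP reads with the same edges, and, among all islands, the 3 over the most islands of the other list, the widest per stage, the 3 windows and the 2 runs with most islands in 1 stage only. The members, classes and rules were chosen with earlier results of these data known. Positions are mm9, counted from 1; the gene and promoter tables at hand are of another build, so no gene or sequence was assigned. The alternatives were a stricter overlap, a distance of 1000 bp, a q-value of at most 1e-06, at least 100 ChIP reads, lists of equal length, removal of dense input, other pair rules, centring, and other window sizes.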

Additional observations from a re-analysis of the deposited data

How the results depend on the processing

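No paired analysis was possible because each stage had 1 library and the result comes from no test. No direction of the median log2 ratio turned. Shared round spermatid islands were 57.2% with an overlap of 50% of the shorter island, 59.3% with islands within 1000 bp also counted, 58.7% at a q-value of at most 1e-06, 67.6% with at least 100 ChIP reads and 60.2% with lists of equal length; shared spermatocyte islands were 63.7%, 65.5% and 63.0% under the first, second and last of these. With at least 100 ChIP reads, which keeps fewer islands, 7508 were in round spermatids only, median widths were 5000 bp in round spermatids and 4200 bp in spermatocytes, and islands over 2 or more of the other list numbered 1095 and 346. Counting islands within 1000 bp as meeting gave 3188 and 2631. The median log2 ratio was -0.059 among pairs with at least 100 ChIP and 20 input reads, with 566 pairs at least 2-fold lower, and -0.12 among pairs overlapping by 50% of both. The ratio of variance to mean was 1.35 in round spermatids only and 2.05 in spermatocytes only in windows of 500 kb, and 2.17 and 5.96 in windows of 5 Mb. With an overlap of 50% of the H4K5bu island, another mark of the other stage was present at 27.4% of islands in round spermatids only and 9.69% of those in spermatocytes only. Of 61 values under these alternatives 37 stayed within the interval of the value reported or, for counts, within 1.5 times of it. For the other 24, given above, the cause was not tested where no fewer islands were kept. The ratios of variance to mean have no interval and are not counts, so any change at all placed them among the 24. Removing islands of dense input moved no share, count or median width of these. The narrow, strong islands in 1 stage only had a median of 14 input reads in round spermatids and 15 in spermatocytes, which limits the precision of their folds.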

Other observations

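The widest H4K5bu islands lay at places of very dense input with little enrichment. In round spermatids the widest, 124000 bp at chr8:19914401-20038400, had 12653 ChIP and 15507 input reads, 125 input reads per kb, and a fold of 1.20 (1.17 to 1.23). The other 3 marks had an island there in round spermatids too, with folds of 1.16 to 1.27, and no mark had one in spermatocytes. In spermatocytes the widest, 82800 bp at chr11:3019401-3102200, had a fold of 1.05 (1.04 to 1.07) at 282 input reads per kb, and 2 round spermatid islands there had a pooled fold of 1.17 at 297 input reads per kb.

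Islands with the same edges in both stages and the most ChIP reads included a pair of such places. At chr5:15112601-15141200 round spermatids had a fold of 1.74 (1.68 to 1.81) at 185 input reads per kb, and spermatocytes one of 1.10 (1.05 to 1.14) at 177. At chr5:14970401-14991400 it was 2.06 in round spermatids and 1.09 in spermatocytes. The place after them in reads, chr4:132062401-132072600, had ordinary input of 16.8 reads per kb in round spermatids and 12.5 in spermatocytes. Round spermatids had a fold of 5.43 (4.58 to 6.47) there, and spermatocytes one of 7.53 (6.24 to 9.14).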
